A study of Mus musculus with 6 samples.

Results

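The dystrophin-glycoprotein complex is described here by chromatin accessibility at 8 of its genes, Dmd, Utrn, Dag1, Sgca, Sgcb, Sgcd, Sntb1 and Dtna. The members are the rows of the deposited promoter table that carry one of these 8 symbols, out of 49366 rows in all. Each row counts ATAC-seq reads up to 1 kb before and after the annotated starts of 1 gene's transcripts, and this stretch, or set of stretches, is called its promoter window. Of 36097 deposited peaks, which are regions of accessible chromatin, 49 lay inside the 8 genes or within 1 kb of their starts, and they are called member peaks. None of the 8 windows and none of the 49 member peaks passed the test for a difference between Yap-shRNA and LacZ-shRNA muscles.

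The complex links the actin cytoskeleton of a muscle fibre to the extracellular matrix and protects the fibre membrane during contraction. Dystrophin (Dmd) binds actin and the membrane protein beta-dystroglycan, whose partner alpha-dystroglycan (both cut from the Dag1 product) binds laminin outside the cell once it carries the right sugar chains. The sarcoglycans stabilise dystroglycan in the membrane, syntrophins and dystrobrevins gather signalling proteins at its inner face, and utrophin (Utrn) is a close relative of dystrophin that is concentrated at the neuromuscular junction. Loss of dystrophin causes Duchenne muscular dystrophy, and loss of a sarcoglycan causes limb-girdle forms. Yap is a transcriptional co-activator of the Hippo pathway that reaches DNA mainly through TEAD proteins.

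The 6 samples came from male C57BL/6J mice aged 8 weeks, whose contralateral gastrocnemius and tibialis anterior (TA) muscles received adeno-associated viral vectors (AAV6) carrying an shRNA against Yap (Yap-shRNA, n = 3) or against the bacterial gene LacZ (LacZ-shRNA, the control, n = 3). Muscles were collected 28 days later, and each sample pooled 4 gastrocnemius and 4 TA muscles, so no value belongs to a single animal or muscle. Nuclei were sorted for PCM1, a protein around the nuclei of muscle fibres, and their accessible chromatin was tagged by a transposase. Levels are given as CPM, the read count scaled to a common library total (TMM scaling), and as CPM per kb of window or peak where genes are compared with each other. Totals were taken separately over windows and over peaks, so CPM in a window and CPM in a peak are not on the same scale.

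Libraries held between 3326803 and 10319467 reads in promoter windows and between 2588520 and 6871176 in peaks, with LacZ-shRNA replicate 2 the shallowest in both tables. LacZ-shRNA replicates 1 and 2 held 5431766 and 3326803 reads in windows, against at least 8622014 in Yap-shRNA. In peaks they held 3824989 and 2588520, against at least 5884288. The TMM factors of peaks lay between 0.910 and 0.988 in LacZ-shRNA and between 1.03 and 1.07 in Yap-shRNA. LacZ-shRNA replicate 3 lay within the Yap-shRNA range in windows, at 8964441 reads, and was the deepest library in peaks, at 6871176. Depth was thus below every Yap-shRNA library for LacZ-shRNA replicates 1 and 2 alone, while scaling at peaks differed along with the group. Yap1, the targeted gene, had window levels of 12.1, 16.7 and 14.1 CPM in LacZ-shRNA replicates 1 to 3 and 14.7, 16.5 and 12.1 CPM in Yap-shRNA replicates 1 to 3. An shRNA acts on the mRNA, so this level does not check the knockdown. Of 12 muscle fibre markers, Ckm stood at 41.0 CPM per kb and Acta1 at 34.3, against a median of 4.71 over the 39022 windows that overlap no other, while the fast myosin gene Myh1 stood at 4.10. The median of the muscle fibre markers was 19.9 CPM per kb. Medians of other lists were also above 4.71, at 7.17 for satellite cell, 6.15 for leukocyte and 5.90 for endothelial markers. Mural and smooth muscle markers had a median of 5.77, Schwann cell markers 5.27 and fibroblast markers 3.81. The summed muscle fibre markers lay between 960 and 1239 CPM in LacZ-shRNA and between 979 and 1162 in Yap-shRNA. Summed leukocyte markers (7 of 8 measured) lay between 147 and 179 CPM in LacZ-shRNA and between 170 and 185 in Yap-shRNA, and fibroblast markers (7 of 7) between 174 and 212 and between 201 and 244. Endothelial markers (7 of 7) lay between 168 and 188 CPM in LacZ-shRNA and between 168 and 189 in Yap-shRNA, satellite cell markers (4 of 4) between 108 and 135 and between 116 and 119. Mural and smooth muscle markers (4 of 4) lay between 67.8 and 83.3 CPM in LacZ-shRNA and between 78.0 and 84.8 in Yap-shRNA, Schwann cell markers (4 of 4) between 90.5 and 113 and between 94.9 and 113. The 2 groups overlapped on all 7 lists, no marker passed the test and none was at 0 in any library. In a sorted pool, fewer nuclei of a type and less open chromatin per nucleus cannot be told apart.

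The promoters of the members fell into kinds that differ in sequence, and 6 of them are shown because the peak values below refer to them. Each is the 250 bases before the first annotated start of a start region, read 5′ to 3′ on the gene's own strand from the RefSeq sequence of build GRCm38.p6, with motif matches in capitals. The Dmd stretches lie at chrX:82948620-82948869 (plus strand), before the start of the full-length coding transcript's region, and at chrX:85048045-85048294 (plus strand), before a start region that serves short coding transcripts near the 3′ end. The Utrn stretch lies at chr10:12869366-12869615, that of Sgca at chr11:94973490-94973739 (its second start region), that of Sgcb at chr5:73647791-73648040 and that of Sgcd at chr11:47379523-47379772 (its only start region with a peak), all on the minus strand.
Dmd first start: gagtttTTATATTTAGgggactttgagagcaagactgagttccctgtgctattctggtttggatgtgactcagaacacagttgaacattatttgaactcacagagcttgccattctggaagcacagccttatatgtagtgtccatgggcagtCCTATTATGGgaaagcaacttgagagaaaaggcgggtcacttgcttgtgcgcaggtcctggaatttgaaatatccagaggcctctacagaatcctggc
Dmd 3′ start: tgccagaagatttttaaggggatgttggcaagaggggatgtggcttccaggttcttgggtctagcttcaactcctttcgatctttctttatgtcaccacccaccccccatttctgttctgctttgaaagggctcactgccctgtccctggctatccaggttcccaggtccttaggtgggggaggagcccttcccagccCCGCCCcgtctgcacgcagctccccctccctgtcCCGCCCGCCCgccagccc
Utrn first start: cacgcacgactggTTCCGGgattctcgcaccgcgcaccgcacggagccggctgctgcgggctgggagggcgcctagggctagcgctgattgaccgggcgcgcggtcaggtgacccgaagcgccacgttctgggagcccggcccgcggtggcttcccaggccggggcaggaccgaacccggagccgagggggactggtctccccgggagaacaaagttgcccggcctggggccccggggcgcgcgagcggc
Sgca second region: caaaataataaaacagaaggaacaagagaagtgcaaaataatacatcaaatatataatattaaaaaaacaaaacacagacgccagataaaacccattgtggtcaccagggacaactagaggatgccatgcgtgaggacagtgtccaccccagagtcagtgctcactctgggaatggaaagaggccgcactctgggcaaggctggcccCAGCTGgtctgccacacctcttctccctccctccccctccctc
Sgcb first start: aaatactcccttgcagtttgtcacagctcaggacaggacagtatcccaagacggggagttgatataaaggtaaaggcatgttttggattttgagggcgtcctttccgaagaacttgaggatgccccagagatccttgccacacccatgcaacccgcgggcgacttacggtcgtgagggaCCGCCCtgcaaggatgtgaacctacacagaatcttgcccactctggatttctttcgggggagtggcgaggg
Sgcd start with a peak: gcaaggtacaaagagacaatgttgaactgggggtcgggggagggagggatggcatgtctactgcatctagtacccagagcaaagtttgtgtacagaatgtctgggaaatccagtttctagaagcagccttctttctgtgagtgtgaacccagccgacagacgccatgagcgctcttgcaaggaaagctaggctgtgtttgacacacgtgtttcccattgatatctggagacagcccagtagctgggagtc
The capitals mark a MEF2 match whose first base lies 244 bases and a CArG match whose first base lies 98 bases before the first Dmd start, 3 GC boxes (GGGCGG on either strand, the last 2 overlapping) before the 3′ Dmd start, an N-box (TTCCGG) at 237 bases before the Utrn start, an E-box (CAGCTG) at 43 bases before the Sgca start and a GC box at 71 bases before the Sgcb start. MEF2 and serum response factor, which binds CArG boxes, are factors of muscle gene expression, E-boxes are bound by MyoD-family factors, N-boxes by ETS factors, and GC boxes by Sp1-type factors of CpG-rich promoters. The same stretch of 32851 RefSeq promoters held a MEF2 match in 2.92%, a CArG match in 1.47%, this E-box in 13.0%, this N-box in 12.03% and a GC box in 32.7%. A match is a description of the letters and not a bound site. No motif of the 6 searched was found in the Sgcd stretch, and the TEAD motif (ACATTCC on either strand, in 3.25% of all promoters) was in none of the stretches of the 8 genes.

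CpG content also differed between the starts. Observed over expected CpG was 0.94 upstream of Utrn, 0.82 upstream of Sntb1, 0.75 upstream of Dag1 and 0.62 upstream of Sgcb, and it was 0.16 upstream of the first Dmd start, 0.21 at the second Sgca region and 0.32 at Sgcd, with a median of 0.37 over all promoters. The first starts of Utrn and Dmd, whose products are related, were the highest and the lowest of these 7. The other coding start regions of Utrn lay between 0.06 and 0.47, so the contrast holds for its first start alone. The first starts of Dtna and Sgca, which are not among the 7, were at 0.19 and 0.23. The 3′ Dmd start, with 60.0% G and C, was at 0.32.

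Accessibility differed widely between the promoter windows of the 8 genes. Per kb of window, Dag1 was highest at 28.1 CPM per kb over the 6 samples (range 23.2 to 35.3), which is above 99.6% of windows that overlap no other. Sgca followed at 17.5 (14.97 to 19.95), above 97.98% of windows. Sntb1 came next at 7.54 CPM per kb (6.25 to 9.67), then Utrn at 5.40 (4.97 to 6.00), Sgcd at 4.88 (4.28 to 5.42) and Dtna at 4.47 (3.96 to 5.25). Sgcb at 2.35 CPM per kb (1.94 to 2.77) and Dmd at 2.19 (2.05 to 2.34) were lowest. The Sgcb window overlaps that of another gene and holds only part of the reads at its promoter. Its start peak stood at 36.5 CPM per kb, the highest of the 9 start peaks of members, with Dag1 at 32.6 and the first Dmd start at 18.1. Ranges over samples did not overlap between Dag1 and Sgca, Sgca and Sntb1, Sntb1 and Utrn, or Dtna and Sgcb. They overlapped for the other neighbours, and within single libraries Utrn was above Sgcd in 6 of 6, Sgcd above Dtna in 5 of 6 and Sgcb above Dmd in 4 of 6. Dmd lies on the single X chromosome of male mice, where the median window held 2.00 CPM per kb against 4.85 on autosomes, and it stood above 60.1% of 1994 windows on that chromosome. Windows that join many starts also average stretches with and without peaks. The Dmd window covers 18.2 kb around 9 start regions and that of Utrn 17.3 kb around 8, but only 1 start region of each held a peak.

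Yap-shRNA and LacZ-shRNA muscles were compared at promoter windows with edgeR's quasi-likelihood test on the counts. Across the series 11 windows passed an adjusted p of 0.05, which is 0.0223% of those tested, and none of them was a member. Adjusted p ranged from 0.946 to 0.998 for the 8 members, none had an unadjusted p under 0.05 (4.90% of all windows did), and none passed by a likelihood-ratio test, limma voom or DESeq2, whose filter gave 2 of the 8 no adjusted p. The median log2 fold change of Yap-shRNA against LacZ-shRNA over the members was -0.03, with 4 above and 4 below 0, against -0.01 over all windows.

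**Figure D1:**
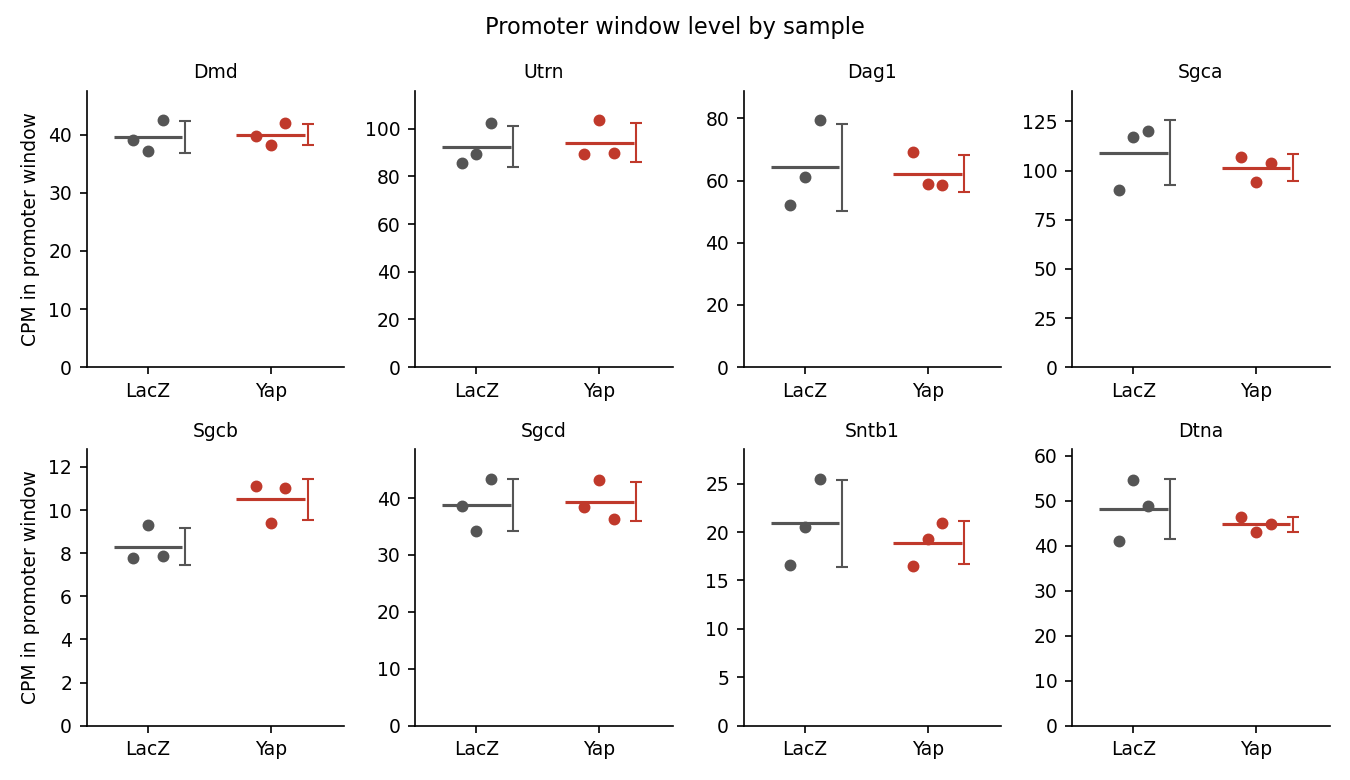
Promoter window level (y axis, CPM, from 0) of each of the 8 genes in the 3 LacZ-shRNA (grey) and 3 Yap-shRNA (red) samples, in replicate order from left to right. Points are samples, lines are means and bars are 1 SD; the groups overlap in 7 panels and are separate for Sgcb.

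Dystrophin accessibility differed between the groups by less than the spread of samples. The Dmd window held 39.1, 37.2 and 42.5 CPM in LacZ-shRNA replicates 1 to 3 and 39.8, 38.3 and 42.0 CPM in Yap-shRNA replicates 1 to 3. Every Yap-shRNA value fell within the LacZ-shRNA range. The log2 fold change was 0.00 (95% interval -0.27 to 0.28). The only peak at a Dmd start, 463 bp at chrX:82948579-82949041, covers the whole first stretch shown above, with its MEF2 and CArG matches. It held 10.1, 7.6 and 9.9 CPM in LacZ-shRNA and 8.1, 7.5 and 7.1 CPM in Yap-shRNA, a log2 fold change of -0.31 (SE 0.24, unadjusted p = 0.205, adjusted p = 0.800 by edgeR). The groups overlapped at this peak through LacZ-shRNA replicate 2. Across the 6 libraries it held 594 reads per kb, while the rest of the Dmd window held 90.1, so 14.7% of the window's reads came from the peak. The other 5 Dmd peaks, all in introns, had log2 fold changes of 0.03 to 0.63. That of lowest p, 698 bp at chrX:84607546-84608243, held 2.5, 0.85 and 1.5 CPM in LacZ-shRNA and 3.0, 2.8 and 1.8 CPM in Yap-shRNA, a log2 fold change of 0.63 (SE 0.46, unadjusted p = 0.174, adjusted p = 0.770 by edgeR). The groups overlapped at these low levels. No peak was listed at the 3′ start region with its GC boxes.

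Utrophin gave the member peak of lowest p. The Utrn window held 85.7, 89.4 and 102 CPM in LacZ-shRNA and 89.2, 104 and 89.7 CPM in Yap-shRNA, a log2 fold change of 0.02 (95% interval -0.25 to 0.29). These groups overlapped almost completely. Inside this window, the 819 bp peak at chr10:12868925-12869743, which spans the first start and all of the CpG-rich stretch shown above, held 7.7, 5.9 and 14.7 CPM in LacZ-shRNA and 13.2, 20.2 and 17.2 CPM in Yap-shRNA. Means were 9.45 ± 4.66 and 16.9 ± 3.47 CPM (SD, n = 3 each), and LacZ-shRNA replicate 3 lay inside the Yap-shRNA range. The log2 fold change was 0.69 (SE 0.22), with an unadjusted p of 0.003 and an adjusted p of 0.198 by edgeR. In a fit that left out LacZ-shRNA replicate 3 the log2 fold change was 1.28 with an adjusted p of 0.0073 by edgeR. The controls left in that fit, replicates 1 and 2, were shallower than every Yap-shRNA library and held 28 and 14 reads in this peak. Replicate 3, with 6871176 reads in peaks, was the only control as deep as the Yap-shRNA libraries. Library size alone, with all 6 samples, gave 0.82 with an adjusted p of 0.034 by edgeR, so the call depends on LacZ-shRNA replicate 3 and on the scaling. A second Utrn peak, 607 bp at chr10:12868041-12868647 and just downstream of the start, held 10.4, 6.4 and 13.8 CPM in LacZ-shRNA and 11.9, 14.5 and 9.9 CPM in Yap-shRNA, a log2 fold change of 0.15 (SE 0.22). At both peaks LacZ-shRNA replicate 3 was the highest of the control samples and replicate 2, the shallowest library, the lowest. The Utrn peak of highest mean over the 6 samples was in an intron, at chr10:12694632-12695305, with 16.3 ± 1.76 CPM in LacZ-shRNA and 14.3 ± 1.94 CPM in Yap-shRNA (log2 fold change -0.19, SE 0.18), so in Yap-shRNA alone the first-start peak was the higher.

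Dystroglycan had the member window of highest level per kb, although the Sgcb start peak was above that of Dag1 per kb. The Dag1 window held 52.1, 61.2 and 79.4 CPM in LacZ-shRNA and 69.0, 58.8 and 58.5 CPM in Yap-shRNA, a log2 fold change of -0.06 (95% interval -0.35 to 0.23). The control samples spanned the range of the Yap-shRNA samples. Its start peak is 3292 bp wide, at chr9:108261694-108264985, and held 93.6, 97.2 and 122 CPM in LacZ-shRNA and 119, 109 and 103 CPM in Yap-shRNA (log2 fold change 0.07, SE 0.13). This peak was above 98.3% of all peaks in mean CPM. Window and peak differed in sign, and both intervals included 0. Of the other 3 Dag1 peaks, 2 lie in introns and 1 in an exon, and their mean levels lay between 13.7 and 24.3 CPM.

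Among the sarcoglycans, Sgca, the alpha subunit restricted to striated muscle, was highly accessible. Its window held 90.3, 117 and 120 CPM in LacZ-shRNA and 107, 93.9 and 104 CPM in Yap-shRNA, a log2 fold change of -0.10 (95% interval -0.38 to 0.17). The groups overlapped, with LacZ-shRNA replicate 1 lowest. Of its 2 start peaks, that over the second region with the E-box shown above (chr11:94971938-94974199) held 72.8, 73.5 and 77.5 CPM in LacZ-shRNA and 64.2, 64.1 and 66.2 CPM in Yap-shRNA. All control values lay above all Yap-shRNA values, yet the difference was small, with a log2 fold change of -0.21 (SE 0.12, unadjusted p = 0.091, adjusted p = 0.663 by edgeR). The other Sgca peak (chr11:94974727-94976736) held 53.8 ± 8.00 CPM in LacZ-shRNA and 56.0 ± 6.35 CPM in Yap-shRNA (log2 fold change 0.05, SE 0.13).

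Sgcb, the beta subunit, was the one member whose window groups were separate, and its window and peak gave different values. The window held 7.8, 9.3 and 7.9 CPM in LacZ-shRNA and 11.1, 9.4 and 11.01 CPM in Yap-shRNA, means of 8.31 ± 0.85 and 10.5 ± 0.95 CPM. All Yap-shRNA values lay above all control values, by 9.403 against 9.292 CPM at the closest. The log2 fold change was 0.36 (95% interval -0.05 to 0.77), with an unadjusted p of 0.080 and an adjusted p of 0.946 by edgeR, and groups were separate in this direction at 5.31% of all windows and in either direction at 10.1%. The start peak inside that window, 1104 bp at chr5:73647043-73648146, held 41.1, 39.1 and 41.2 CPM in LacZ-shRNA and 41.0, 42.2 and 37.4 CPM in Yap-shRNA, a log2 fold change of -0.01 (SE 0.13). The 2 groups overlapped there. Over the 6 libraries the window of 4.0 kb counted 446 reads and the peak of 1.1 kb inside it 1337. The window of the gene Gm43799 overlaps that of Sgcb. The window count, being below that of the peak it contains, holds only part of the reads at this promoter.

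Sgcd, the delta subunit, is the longest member after Dmd. Its window held 38.5, 34.3 and 43.4 CPM in LacZ-shRNA and 38.5, 43.1 and 36.4 CPM in Yap-shRNA, a log2 fold change of 0.01 (95% interval -0.27 to 0.28). The groups overlapped fully. Its only start peak, 659 bp at chr11:47378956-47379614, overlaps the Sgcd stretch shown above and held 7.9, 8.9 and 11.05 CPM in LacZ-shRNA and 14.1, 14.0 and 12.1 CPM in Yap-shRNA. All Yap-shRNA values were above all control values. Means were 9.30 ± 1.59 and 13.4 ± 1.15 CPM, a log2 fold change of 0.49 (SE 0.21), with an unadjusted p of 0.025 and an adjusted p of 0.443 by edgeR. A stronger peak of 1611 bp lies beside it in the intron at chr11:47376814-47378424 and held 39.0 ± 4.91 CPM in LacZ-shRNA and 39.3 ± 5.81 CPM in Yap-shRNA (log2 fold change -0.01, SE 0.13). The Sgcd peak of lowest p among those lower in Yap-shRNA, in an intron at chr11:47887736-47888602, held 10.6 ± 1.35 CPM in LacZ-shRNA and 8.93 ± 1.17 CPM in Yap-shRNA (log2 fold change -0.23, SE 0.23).

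Sntb1, which encodes beta-1-syntrophin, had no peak at its CpG-rich start. Its window held 16.6, 20.5 and 25.5 CPM in LacZ-shRNA and 16.5, 19.3 and 21.0 CPM in Yap-shRNA, a log2 fold change of -0.17 (95% interval -0.50 to 0.17). The groups overlapped. Its most accessible peak, in an intron at chr15:55726902-55727929, held 31.2, 35.7 and 30.5 CPM in LacZ-shRNA and 25.5, 21.0 and 25.5 CPM in Yap-shRNA. All Yap-shRNA values lay below all control values, with means of 32.5 ± 2.80 and 24.0 ± 2.59 CPM. The log2 fold change was -0.42 (SE 0.14), with an unadjusted p of 0.005 and an adjusted p of 0.250 by edgeR. Of the other 4 Sntb1 peaks, 1 in an intron at chr15:55868523-55868983 held 9.15 ± 0.91 CPM in LacZ-shRNA and 11.1 ± 1.56 CPM in Yap-shRNA (log2 fold change 0.31, SE 0.23).

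Dtna, which encodes alpha-dystrobrevin, held 41.1, 54.5 and 48.9 CPM in its window in LacZ-shRNA and 46.3, 42.9 and 44.9 CPM in Yap-shRNA, a log2 fold change of -0.10 (95% interval -0.37 to 0.18). All Yap-shRNA values lay within the control range. The window overlaps that of Gm47898 at a start region other than the first. Its start peak, of 692 bp, held 15.3, 19.96 and 18.3 CPM in LacZ-shRNA and 16.4, 12.2 and 12.6 CPM in Yap-shRNA, with a log2 fold change of -0.37 (SE 0.18, unadjusted p = 0.050, adjusted p = 0.563 by edgeR). The groups overlapped at LacZ-shRNA replicate 1. In introns, the Dtna peak 96.4 kb from the first start had the highest CPM, at 34.2 ± 2.24 in LacZ-shRNA and 31.4 ± 0.23 in Yap-shRNA (log2 fold change -0.12, SE 0.13). That 239 kb from the start held 20.7 ± 1.53 CPM in LacZ-shRNA and 24.5 ± 1.396 CPM in Yap-shRNA (log2 fold change 0.26, SE 0.15). Per kb of peak the 2 were alike, at 24.3 CPM for the peak at 96.4 kb and 24.7 for that at 239 kb. The groups were separate at both, in opposite directions.

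**Figure D2:**
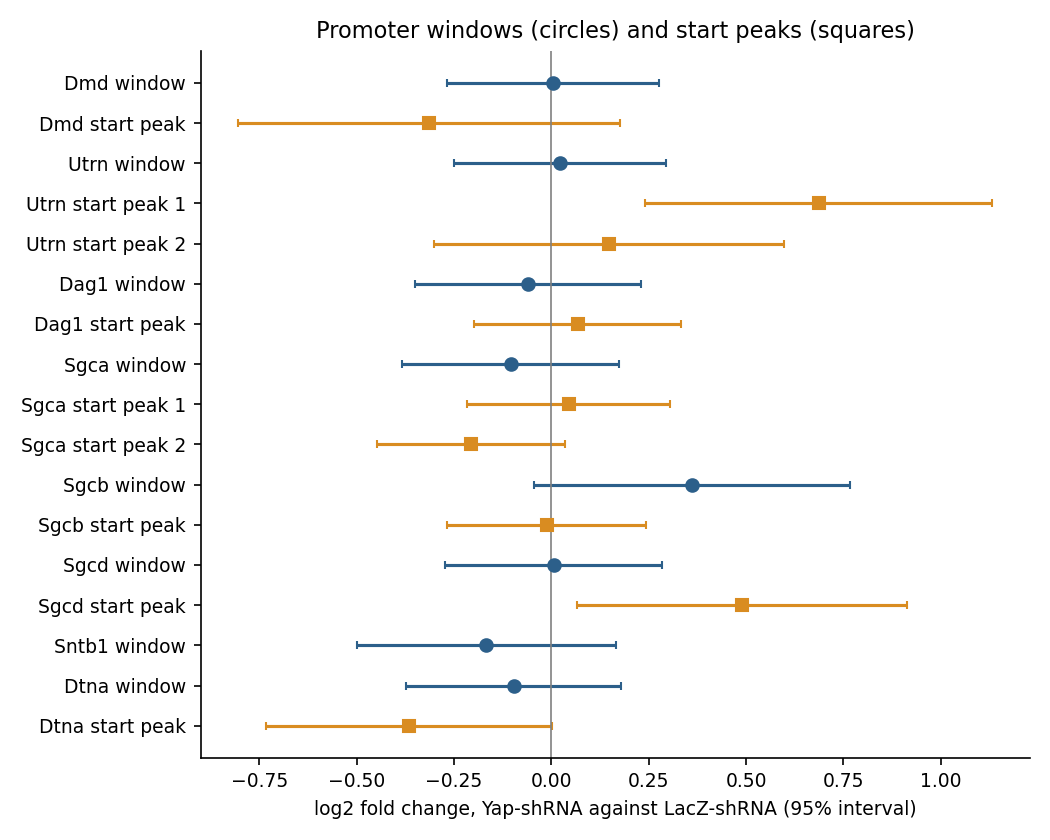
Log2 fold change of Yap-shRNA against LacZ-shRNA (x axis) with its 95% interval for the promoter window (circles) and each start peak (squares, numbered from the first start) of the 8 genes; values above 0 are higher in Yap-shRNA. Windows lie between -0.17 and 0.36, start peaks between -0.37 and 0.69, and the intervals of the first Utrn start peak and of the Sgcd start peak lie above 0 before adjustment for the number of peaks tested.

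Over all 49 member peaks, 3 had an unadjusted p under 0.05, the Utrn and Sgcd start peaks and the Sntb1 intron peak, against 8.90% of all peaks. None passed an adjusted p of 0.05, which 223 peaks or 0.618% of the table did (17 higher and 206 lower in Yap-shRNA), and none passed by a likelihood-ratio test or limma voom, where 4 member peaks each had an unadjusted p under 0.05. By DESeq2 none passed, 2 had an unadjusted p under 0.05, and its filter gave 26 no adjusted p. The groups were separate at 6 member peaks, 2 higher and 4 lower in Yap-shRNA, against 13.3% of all peaks (6.55% higher and 6.76% lower). The median log2 fold change of the member peaks was 0.04, with 28 above and 21 below 0, against -0.00 over all peaks.

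**Figure D3:**
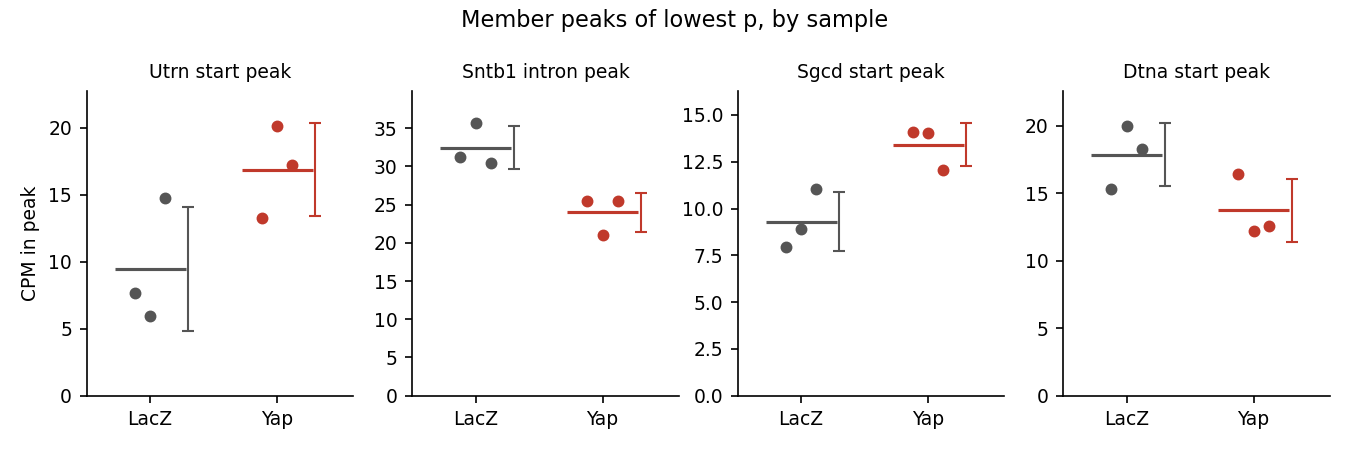
Level (y axis, CPM, from 0) of the 4 member peaks of lowest unadjusted p in the 3 LacZ-shRNA (grey) and 3 Yap-shRNA (red) samples, with means as lines and 1 SD as bars. Groups are separate for the Sgcd and Sntb1 peaks and overlap for the Utrn and Dtna peaks, and no peak passed the adjusted test.

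The long members differed in how many accessible regions they held. Peaks lay at 16.4 per Mb in Utrn (8 peaks), 16.5 in Sgcd (18), 18.5 in Sntb1 (5) and 20.4 in Dtna (5), but at 2.66 per Mb in Dmd, with 6 peaks over 2257 kb. The median of 997 protein-coding genes of at least 200 kb was 9.78 peaks per Mb, and Dmd stood above 13.7% of them, whereas Utrn, Sgcd, Sntb1 and Dtna stood above 71.6%, 71.7%, 76.2% and 80.5%. These 997 genes were pooled over chromosomes, and Dmd was not ranked among genes of the X chromosome alone. The median window on that single chromosome held 2.00 CPM per kb against 4.85 on autosomes, and its part in the low peak density was not tested. Of the 49 member peaks 37 lay in introns, 9 at starts and 3 in exons. In Dmd the start peak at 8.39 CPM was the highest and the 3 peaks deep in the gene held 2.07 to 2.89 CPM. The lowest Dmd peak, at 1.96 CPM, lay 28.2 kb from the first start. Per kb of peak, the intron peak 7.17 kb from the first start was above the start peak, at 19.7 against 18.1 CPM. In Sgcd, Sntb1, Utrn and Dtna the peak of highest mean over the 6 samples was in an intron. Sgca and Sgcb, the short members, held peaks at their starts alone.

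**Figure D4:**
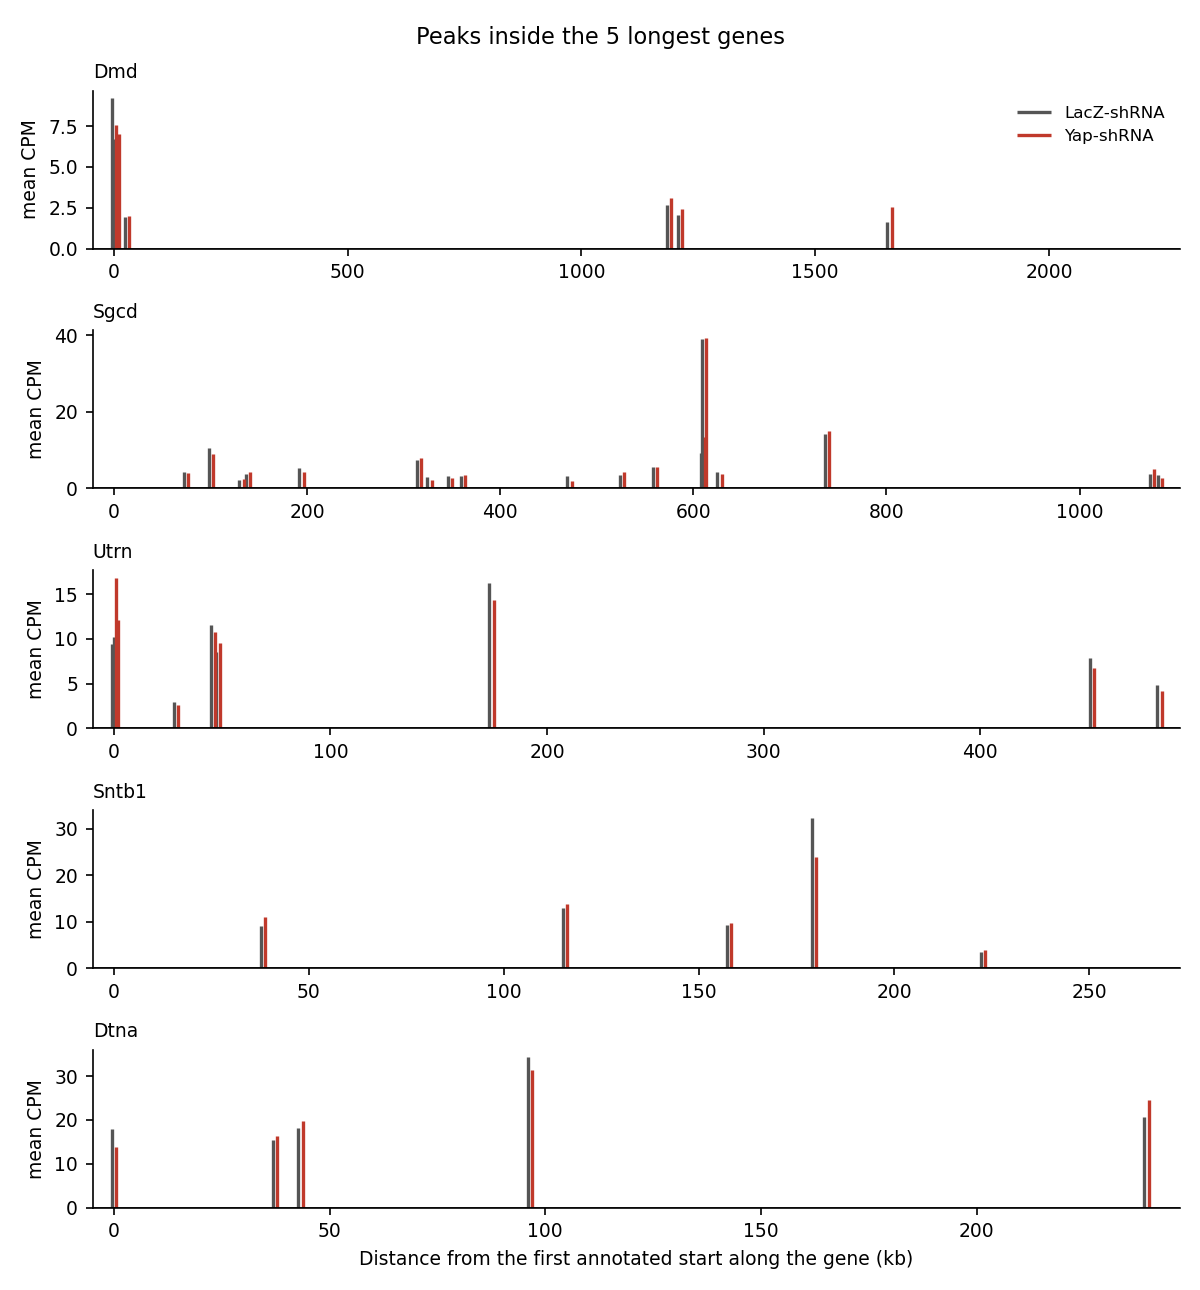
Peaks of the 5 longest members by distance from the first annotated start (x axis, kb, drawn slightly apart for the 2 groups), with mean CPM over 3 samples on the y axis for LacZ-shRNA (grey) and Yap-shRNA (red). Dmd holds 6 peaks over 2257 kb, and the highest peak of Sgcd stands beside the fourth start region.

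Member peaks were narrower and poorer in CpG than the whole set, with a median width of 707 against 902 bp and a median observed over expected CpG of 0.19 against 0.30. The TEAD motif was in 5 of the 49 member peaks, a share of 10.2%, against 8.96% of 35982 peaks. Of these, 2 are in Dtna, and the others are in Utrn, Dag1 and Sgcd. The matches outside Dtna are shown because TEAD proteins are the route by which Yap reaches DNA, each with 9 bases before and after the motif in capitals.
Utrn intron peak, chr10:12694937-12694961, minus strand: ccttaacccACATTCCtgtgagccc
Dag1 start peak, chr9:108261752-108261776, plus strand: tgggcctgaACATTCCtgacttcag
Dag1 start peak, chr9:108262401-108262425, plus strand: aatgcttgcACATTCCcacccggtg
Sgcd intron peak, chr11:47376977-47377001, plus strand: ggaatagctACATTCCagtagtgac
The log2 fold changes of these 3 peaks were -0.19 (SE 0.18) for Utrn, 0.07 (SE 0.13) for Dag1 and -0.01 (SE 0.13) for Sgcd. In Dtna the start peak, at -0.37 (SE 0.18), and an intron peak 37.4 kb from the start, at 0.10 (SE 0.18), held the motif. None of the 3 member peaks with an unadjusted p under 0.05 held it. The longest run of G or C in any member peak was 9 bases, whereas 405 of all peaks, or 1.13%, held a run of at least 15.

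The other genes of the pathway were read from lists of 60 genes, of which 58 were measured. None of the 58 passed, and 1 had an unadjusted p under 0.05, against 4.90% of all windows. The median log2 fold change of the 58 was 0.03. Each list had genes on both sides of 0.

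Among 10 other subunits the median was -0.05, with 4 above 0. Sspn, which encodes sarcospan, held 42.3, 43.9 and 47.2 CPM in LacZ-shRNA and 48.6, 51.8 and 54.8 CPM in Yap-shRNA (log2 fold change 0.21, SE 0.13). Its groups were separate, as were those of Dtnb in the same list and of Tln1 among the adhesion genes, 3 of 58 in all. Each was higher in Yap-shRNA, and 5.31% of all windows were separate in that direction and 10.1% in either direction. Dtnb and Tln1 were named after their values were seen. Drp2, which encodes dystrophin-related protein 2, was on the other side, with 13.7, 13.1 and 18.7 CPM in LacZ-shRNA and 11.8, 13.9 and 11.9 CPM in Yap-shRNA (log2 fold change -0.31, SE 0.18), which was -0.10 without LacZ-shRNA replicate 3. Among 12 cytoplasmic partners the median was -0.05, and Kcnj4, an inward-rectifier potassium channel, was at 0.29 (SE 0.15). The membrane repair gene Dysf, whose window overlaps that of another gene, was at -0.17 (SE 0.14).

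Of 17 genes for the glycosylation of dystroglycan, the step that lets it bind laminin, 15 were measured, and B4gat1 and Dolk were not analysed here. They had a median of 0.14 with 11 above and 4 below 0, and 9 of the 15 windows overlap that of another gene. Pomgnt1, whose window is among these 9, was at 0.22 (SE 0.14) and Rxylt1 at -0.14 (SE 0.14). Among 11 matrix ligands the median was 0.02. Slit2, a secreted guidance protein that binds dystroglycan, held 135, 95.2 and 118 CPM in LacZ-shRNA and 98.4, 96.5 and 85.5 CPM in Yap-shRNA, a log2 fold change of -0.32 (SE 0.14) with an unadjusted p of 0.027 and an adjusted p of 0.946 by edgeR. Its groups overlapped, and its window overlaps that of another gene. Lama5, a laminin chain whose window also overlaps that of another gene, was at 0.09 (SE 0.14). Among 10 genes of the parallel integrin adhesion system the median was 0.05, with the actin linker Tln2 at 0.24 (SE 0.14) and Itgb1bp2, which encodes melusin, at -0.13 (SE 0.16).

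**Figure D5:**
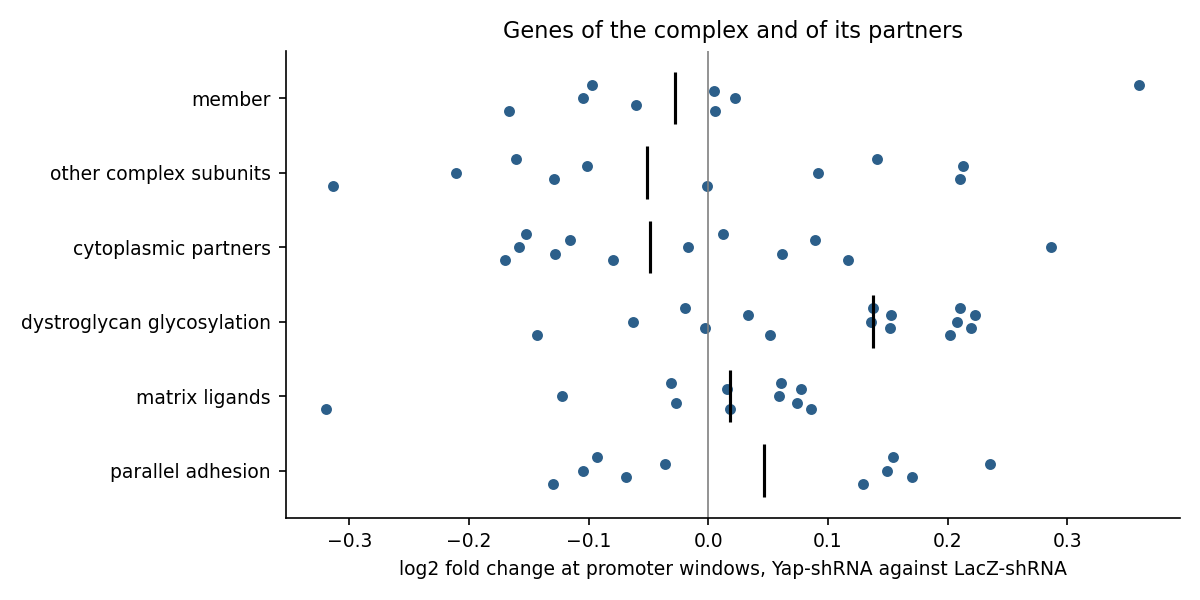
Log2 fold change at promoter windows, Yap-shRNA against LacZ-shRNA (x axis), of every measured gene of the 8 members and of 5 lists of partners, 1 point a gene, with the list median as a vertical line and points spread vertically for legibility. The points of each list lie on both sides of 0, and the list medians lie between -0.05 and 0.14.

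The SD of the control samples was larger than the difference between group means at 7 of the 8 windows, Sgcb being the other, and at 75.3% of all windows. LacZ-shRNA replicate 1 was the lowest of the 6 samples at 5 of the 8 windows, against 28.9% of all windows, and LacZ-shRNA replicate 3 was the highest at 5 of the 8, against 14.8%. The coefficient of variation was larger in LacZ-shRNA than in Yap-shRNA at 8 of 8 members and at 78.1% of all windows. The summed muscle fibre markers were also lowest in LacZ-shRNA replicate 1, at 960 CPM, but were as high in replicate 2 as in replicate 3, at 1239 and 1228 CPM, and their part in the member levels was not tested. Of 38873 windows with a mean count of at least 50, those whose profile over the 6 samples was most like the mean profile of the members were Psma3 (Pearson r = 0.999), Uba3 (0.997), Slc6a9 (0.996), C030006K11Rik (0.995) and Mdm2 (0.994), with 6 samples sharing depth and preparation, as a description only.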

How the data were processed

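Deposited files held whole-number read counts, which the authors made by aligning ATAC-seq reads to GRCm38 with BWA 0.7.17, removing duplicates with SAMtools 1.8, calling peaks with MACS 1.4.2-1 (kept when found in at least 2 samples) and counting with featureCounts 1.5.0 against Ensembl annotation. Rows with a mean count under 10 were absent from both tables.

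Windows were placed with GENCODE M21, which matched all 49366 gene identifiers, and 21% overlap another gene's window. Counts were fitted over each whole table by edgeR 4.0.16 quasi-likelihood tests (R 4.3.3, TMM scaling, no other covariate), with Benjamini-Hochberg adjustment over all rows. Alternatives were a likelihood-ratio test, DESeq2 1.42.0, limma 3.58.1 voom, other scalings, a loess offset on abundance, a mean count of at least 50, a replicate block, and leaving out each sample. The test was checked on simulated counts. The labels do not say which animals entered which pool, and p-values rest on the spread between these 6 samples. In the edgeR fits the variance of each row was moderated by that of all rows. A p-value, SE or interval is therefore not a measure of the spread of that row alone.

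Beyond the genes listed, a further glycosylation gene is not reported here. Members and lists were chosen with earlier results of these data known. Named were all members, each one's highest peak, start peaks and lowest-p peak in each direction, the lowest-p gene of each list in each direction and any with an unadjusted p under 0.05, and the 5 windows most alike. Other genes or peaks named, such as the 37.4 kb Dtna peak, were chosen after their values were seen. Sequences and promoters are RefSeq GRCm38.p6.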

Additional observations from a re-analysis of the deposited data

How the results depend on the processing

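No member window passed under any alternative run, and member peaks were at 0 calls except under library size alone and without LacZ-shRNA replicate 3, with 1 call each. Both calls were the Utrn start peak, at log2 0.82 (adjusted p = 0.034 by edgeR) and 1.28. Library size alone, without TMM, moved the median of all peaks from -0.00 to 0.14, the median of member peaks to 0.17, and the split of called peaks from 17 higher and 206 lower to 124 and 105; it also turned the Sgcb start peak to 0.13, the Sgcd intron peak beside the start to 0.13, the Dag1 exon peak to 0.077, the Dtna peak at 96.4 kb to 0.021 and the Dag1 window to 0.0012. Calls over all windows (11) were 33 by the likelihood-ratio test, 20 by DESeq2, 23 by limma voom and 33 with the loess offset, and calls over all peaks (223) were 378 by the likelihood-ratio test, 118 by DESeq2, 143 with the loess offset, 136 at a mean count of at least 50 and 103 at an adjusted p of 0.01. The Dmd window was -0.00030 by DESeq2, -0.00029 with RLE factors, -0.021 with the loess offset and -0.0059 at a mean count of at least 50, and the Sgcd window was -0.020 and -0.0051 under the last 2.

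Leaving out each sample in turn gave 4 to 157 called windows and 94 to 447 called peaks, the most without LacZ-shRNA replicate 1 and without LacZ-shRNA replicate 3. Member medians ranged from -0.12 to 0.083 at windows and from -0.027 to 0.071 at peaks, and member peak calls from 0 to 1. Values that changed sign ranged from -0.031 to 0.064 for the Dmd window, -0.051 to 0.11 for Utrn, -0.21 to 0.14 for Dag1, -0.064 to 0.10 for Sgcd, -0.33 to 0.047 for Sntb1 and -0.027 to 0.22 for Lama5. At peaks they ranged from -0.029 to 0.48 for the downstream Utrn start peak, -0.012 to 0.21 for Dag1, -0.070 to 0.17 for the first Sgca region, -0.049 to 0.020 for Sgcb and -0.12 to 0.072 for the Sgcd intron peak. The cause was not tested. With the replicate number as a block (replicate block), 13 windows and 207 peaks passed, and no member did. Deviations of same-numbered samples correlated at 0.191, -0.121 and 0.0923 in windows and at 0.0155, -0.0931 and -0.139 in peaks, so not every sample correlated with its own number. The labels do not say whether same-numbered samples share mice, and they are treated as sharing only a number.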
